A study of Homo sapiens with 18 samples.

Results

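The cytosolic ribosomal protein genes encode the proteins of the ribosome that translates nuclear mRNA. Members were the protein-coding genes named RPL or RPS with a number, with an optional A, X or L, and RPSA, RPLP0, RPLP1 and RPLP2, without the RPS6K kinase genes. The rule gave 81 genes of 19974 protein-coding genes on chromosomes 1 to 22 and X, 49 of the large subunit and 32 of the small subunit. CUT&Tag, an assay that tethers a transposase to an antibody so that DNA near the antibody's target is cut and tagged, was run in A549, a human lung adenocarcinoma line. The cells carried a knockout of YTHDF1 (YTHDF1-KO), were treated with siRNA against ARID1A (siARID1A), or were wild type (WT). Each condition was profiled with an antibody against ARID1A and one against YTHDF1, 2 replicates each, which gives 12 peak lists. The 6 IgG samples were not analysed here, nor was the knockout combined with the knockdown, a condition named in the study's design. The labels do not say whether the knockout is 1 clone, nor if replicates came from separate cultures. The p-values therefore cover only the scatter of these libraries, and that scatter may be technical.

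Ribosomal proteins are made in matched amounts from short, strongly transcribed genes spread over nearly all chromosomes. Their transcripts start with a run of pyrimidines, the terminal oligopyrimidine (TOP) motif, through which mTOR signalling sets their translation. ARID1A is the DNA-binding subunit of the canonical BAF (SWI/SNF) complex, which moves nucleosomes at promoters and enhancers. YTHDF1 binds mRNA that carries N6-methyladenosine and is best known from the cytoplasm, where it promotes translation.

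Promoters of 8 members are shown because these genes carry the differences described further on or stand at an end of the ranking. Each runs from 100 bases before to 20 bases after the annotated start, and capitals mark the pyrimidine run at the start. The sequences are from RefSeq, build GRCh38.p14. RPS16 is at chr19:39435930-39436049 on the minus strand, RPL28 at chr19:55385832-55385951 on the plus strand, RPS25 at chr11:119018324-119018443 on the minus strand, and RPS13 at chr11:17077648-17077767 on the minus strand. RPS23 is at chr5:82278335-82278454 on the minus strand, RPL29 at chr3:51995876-51995995 on the minus strand, RPL34 at chr4:108620476-108620595 on the plus strand, and RPS18 at chr6:33271975-33272094 on the plus strand.
RPS16: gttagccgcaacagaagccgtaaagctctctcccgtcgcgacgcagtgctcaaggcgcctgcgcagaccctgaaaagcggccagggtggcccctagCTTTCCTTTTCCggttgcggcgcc
RPL28: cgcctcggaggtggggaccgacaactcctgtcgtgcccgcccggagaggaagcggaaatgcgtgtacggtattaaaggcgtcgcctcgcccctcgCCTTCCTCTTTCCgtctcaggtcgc
RPS25: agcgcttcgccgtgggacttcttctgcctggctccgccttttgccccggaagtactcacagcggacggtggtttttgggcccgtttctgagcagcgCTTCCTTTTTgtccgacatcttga
RPS13: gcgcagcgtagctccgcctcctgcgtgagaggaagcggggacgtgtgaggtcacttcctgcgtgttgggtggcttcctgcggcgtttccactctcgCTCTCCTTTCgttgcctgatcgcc
RPS23: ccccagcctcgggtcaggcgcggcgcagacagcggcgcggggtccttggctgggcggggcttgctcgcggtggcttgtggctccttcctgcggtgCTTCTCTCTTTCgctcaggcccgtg
RPL29: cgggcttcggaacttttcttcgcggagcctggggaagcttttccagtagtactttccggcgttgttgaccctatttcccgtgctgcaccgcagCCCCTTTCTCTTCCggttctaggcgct
RPL34: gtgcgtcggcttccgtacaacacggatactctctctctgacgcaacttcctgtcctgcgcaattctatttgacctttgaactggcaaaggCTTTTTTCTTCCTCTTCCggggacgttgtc
RPS18: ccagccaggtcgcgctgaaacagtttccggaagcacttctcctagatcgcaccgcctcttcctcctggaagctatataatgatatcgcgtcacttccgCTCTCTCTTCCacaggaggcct
The run is 10 to 18 bases long in these 8 and spans the start in each. RPS16 and RPL28 had a peak within 1 kb of the start in all 6 anti-ARID1A and all 6 anti-YTHDF1 lists. RPS18, whose promoter has an equally clear run of 11 bases, had none there in any list, and RPL34, with the longest run of the 8 shown, had 1 in a single anti-ARID1A list.

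The promoter table held 64 of the 81 members and 15812 protein-coding genes in all, with 250 bases before and 50 after the start. An unbroken run of 6 or more C or T on the sense strand, within 2 bases of the start, was found in 47 of 64 member promoters (73.4%), against 16.9% of all promoters. The ETS core CCGGAAG, searched on both strands, was in 22 of 64 (34.4%), against 14.1% of all. AAGATGGC, the YY1 motif, was in 6 of 64 (9.38%), against 3.86% of all. The GC box GGGCGG had a match in 56.3% of member promoters and 58.3% of all. TATAAA had one in 9.38% and 9.75%, GCGCATGC in 4.69% and 4.28%, and CACGTG in 4.69% and 8.82%. All but the pyrimidine run were searched on both strands, none of the motifs contains another, and a match describes letters only. Median GC content was 59.3% in member promoters and 62.7% in all promoters.

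**Figure D1:**
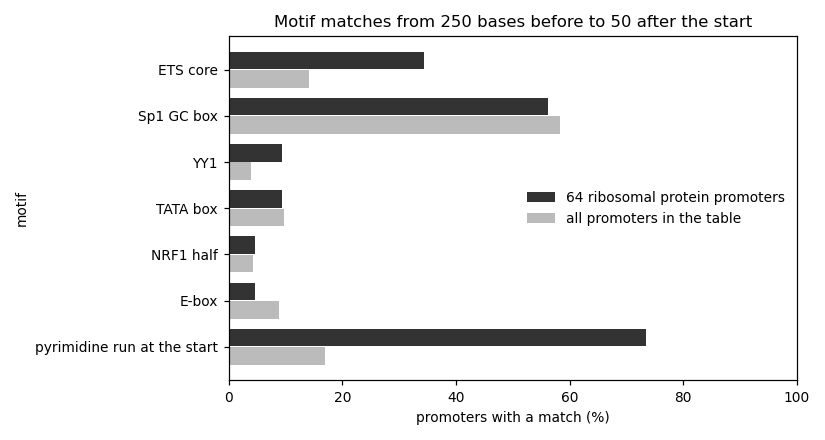
Share of promoters (%, x axis) with each motif (y axis) for the 64 ribosomal protein genes in the promoter table (dark bars) and all 15812 promoters (light bars). The pyrimidine run at the start separates the groups most, at 73.4% against 16.9%, followed by the ETS core at 34.4% against 14.1%.

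The lists differ in length, and the depth of the libraries is unknown. Anti-ARID1A lists held 99861 and 106882 peaks in YTHDF1-KO, 71271 and 79193 in siARID1A, and 92343 and 100729 in WT. The length covered was 241 and 233.8 Mb (YTHDF1-KO), 99.0 and 127.6 Mb (siARID1A), and 227.8 and 266 Mb (WT). The anti-YTHDF1 lists held 46225 to 59632 peaks, apart from 40562 in WT replicate 2, the shortest of the 12 lists. Of 5 lung epithelial genes, KRT8 and SFTPC had a peak in all 12 lists, KRT18 in 6 anti-ARID1A and 5 anti-YTHDF1 lists, NKX2-1 in 6 and 3, and EPCAM in 5 and 2. Of 3 blood genes, PTPRC had a peak in 2 anti-ARID1A lists and 1 anti-YTHDF1 list, CD3E in 3 and 2, and HBB in 0 and 3. A peak is no measure of expression, and these markers do not separate the cell types cleanly. Loss of YTHDF1 or ARID1A protein cannot be read from peak lists and was not checked.

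A member counted as held by a list where a peak overlapped the gene or 1 kb to either side. With anti-ARID1A nearly every member was held. Of 81, 76 and 78 were held in YTHDF1-KO, 76 and 77 in siARID1A, and 78 and 79 in WT. These are 93.8% to 97.5% of members in every list, against 74.7% to 82.3% of all protein-coding genes, and the 2 ranges do not overlap. All 6 anti-ARID1A lists held 72 members (88.9%), against 68.3% of all genes. Members offer a shorter target, with a median length of 5015 bp against 24170 bp for all genes. Among genes no longer than the longest member (27723 bp), 61.4% were held by all 6.

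With anti-YTHDF1 fewer members were held, at shares near those of all genes in YTHDF1-KO. Of 81, 46 and 49 were held in YTHDF1-KO, 64 and 62 in siARID1A, and 61 and 47 in WT. Both YTHDF1-KO lists and WT replicate 2 were low, and the siARID1A lists and WT replicate 1 were high. As shares, members were at 56.8% and 60.5% in YTHDF1-KO, 79.0% and 76.5% in siARID1A, and 75.3% and 58.0% in WT, against 60.4% and 58.2%, 67.2% and 65.3%, and 64.5% and 57.4% of all genes in the same lists. All 6 anti-YTHDF1 lists held 25 members (30.9%), against 35.8% of all genes, and the same 25 were in all 12 lists. In the window of 1 kb around the start, 11 members were held by all 6.

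**Figure D2:**
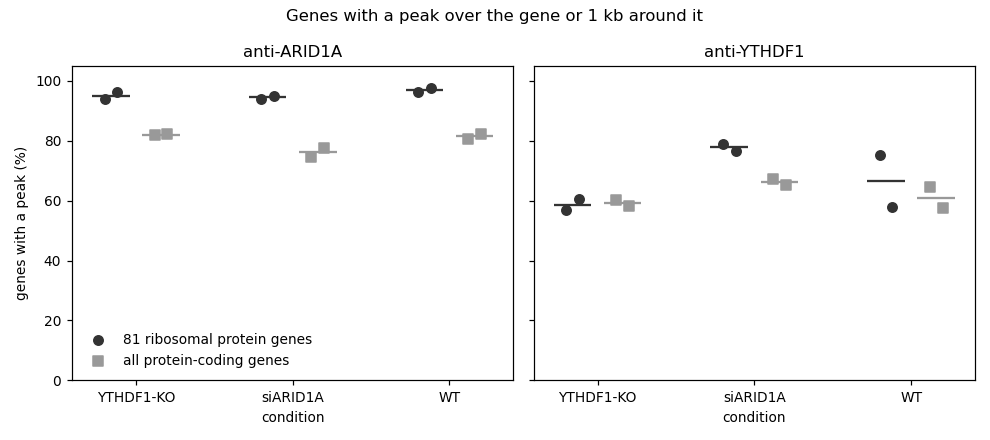
Share of genes with a peak (%, y axis) in each library, for the 81 ribosomal protein genes (dark circles) and all protein-coding genes (grey squares), by condition (x axis) and antibody (panels). Each point is a library and each line a mean of 2. With anti-ARID1A, members lay at 93.8% to 97.5% and all genes at 74.7% to 82.3%, while with anti-YTHDF1 the points of both sets ran from 56.8% to 79.0%.

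The peaks lay at the gene start more often in members than in all genes, which was also so in related gene lists. These shares are of the genes that were held and have an annotated start, 59 to 62 members per anti-ARID1A list and 37 to 49 per anti-YTHDF1 list. Within the strongest peak, the place of highest signal was no more than 500 bp from the start with anti-ARID1A for 55.9% and 57.4% of such members in YTHDF1-KO, 79.7% and 67.2% in siARID1A, and 63.9% and 61.3% in WT. For all genes these shares were 41.9% to 47.6%, below every member value. With anti-YTHDF1 the shares were 42.1% and 46.2% of such members in YTHDF1-KO, 63.3% and 52.1% in siARID1A and 51.0% and 40.5% in WT, against 24.7% to 34.8% of all genes. Among the genes no longer than the longest member the anti-YTHDF1 shares were 29.9% to 37.5%, again below each member share. Their median length was 9359.5 bp, against 5015 bp for members. The trait is not particular to members. Mitochondrial ribosomal protein genes were at 62.7% to 77.8% with anti-ARID1A and 36.4% to 54.1% with anti-YTHDF1. Ribosome biogenesis genes were at 64.4% to 76.4% and 44.4% to 61.0%.

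Whether a gene was held was tested between the antibodies, 6 lists against 6, by a two-sided Fisher's exact test for each gene, adjusted by Benjamini-Hochberg over all 19974 genes. No member passed 0.05, and none of the genes did (0.0% called). Full separation of 6 lists from 6 gives the smallest p this test can reach. To pass after adjustment, more genes than the 836 with an unadjusted p under 0.05 would have had to reach it. No gene could therefore pass, and the lack of calls does not show equal holding. The 6 lists of an antibody also span WT, YTHDF1-KO and siARID1A cells, which the test treats as replicates. At an unadjusted p under 0.05 there were 5 members and 836 genes. The 5 were RPL21, RPL37, RPL39L, RPS10 and RPS15, each held by 6 of 6 anti-ARID1A lists and 1 of 6 anti-YTHDF1 lists (exact p = 0.01515, adjusted p = 0.362). As a count, 54 members were in more anti-ARID1A than anti-YTHDF1 lists, 26 in equal numbers, and RPL10L alone in more anti-YTHDF1 lists. The same count over all genes is not given. All genes lean the same way, with 74.7% to 82.3% held per anti-ARID1A list and 57.4% to 67.2% per anti-YTHDF1 list. The direction is therefore not particular to the members.

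The subunits differed in how evenly the anti-YTHDF1 lists held them. Of the large subunit genes, 19 of 49 were in all 6 anti-YTHDF1 lists and 44 of 49 in all 6 anti-ARID1A lists. Of the small subunit genes, 6 of 32 and 28 of 32 were. By library, anti-YTHDF1 lists held 65.3% and 65.3% of large-subunit genes in YTHDF1-KO, 75.5% and 75.5% in siARID1A, and 79.6% and 61.2% in WT. For small-subunit genes these were 43.8% and 53.1% in YTHDF1-KO, 84.4% and 78.1% in siARID1A, and 68.8% and 53.1% in WT, so the small subunit was the higher in both siARID1A libraries and the lower in the other 4. The difference between the subunits was not tested. The genes of the P stalk, RPLP0, RPLP1 and RPLP2, which recruits elongation factors to the ribosome, were 3 of 3 in all 12 lists. RPLP2 had mean percentiles of 97.8 with anti-ARID1A and 97.0 with anti-YTHDF1, where a percentile ranks the total signal of the strongest peak among the peaks of its list and a list without a peak counts 0.

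RPL5 and RPL11 bind 5S rRNA and, when ribosome assembly fails, hold back MDM2 and so stabilise p53. Both were in all 6 anti-ARID1A lists, with percentiles of 76.5 and 68.6 in YTHDF1-KO, 72.4 and 74.9 in siARID1A, and 56.2 and 68.6 in WT for RPL5. Each was in only 2 anti-YTHDF1 lists, RPL5 in YTHDF1-KO replicate 2 (64.4) and siARID1A replicate 1 (6.55), RPL11 in YTHDF1-KO replicate 1 (16.3) and WT replicate 2 (12.2). No condition held either gene in both anti-YTHDF1 libraries. RPL5's peaks also touched its neighbour DIPK1A. Of the 19 members mutated in Diamond-Blackfan anaemia, an inherited failure of red cell production, 19 were in all 6 anti-ARID1A lists and 4 in all 6 anti-YTHDF1 lists. RPS19, the member most often mutated in that disease, was among the 4.

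Paralogues of restricted expression had mixed patterns. RPL3L, which replaces RPL3 in heart and skeletal muscle, was in all 12 lists with mean percentiles of 97.7 (anti-ARID1A) and 94.6 (anti-YTHDF1), but its strongest peak also reached its neighbour MSRB1 in all 6 anti-ARID1A and 4 anti-YTHDF1 lists. RPL39L, a testis paralogue of RPL39, was in 6 anti-ARID1A lists and 1 anti-YTHDF1 list. RPS27L, a p53 target, was in 6 and 4. RPL10L, a testis gene without introns, had no peak with anti-ARID1A and 1 with anti-YTHDF1, in YTHDF1-KO replicate 2 (percentile 54.3).

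Besides RPL10L, 8 members were missing from at least 1 anti-ARID1A list. RPL34 was in 1 anti-ARID1A list alone, YTHDF1-KO replicate 2, with a peak over its start at percentile 55.3. RPS18 was in 2, YTHDF1-KO replicate 1 (27.0) and WT replicate 2 (30.1), and in 1 anti-YTHDF1 list, YTHDF1-KO replicate 2 (74.1). None of the 3 RPS18 peaks covered its start, since they lay at 4812.5 to 5632 bp from it at the side of B3GALT4. RPL29 was in 4 anti-ARID1A lists, and RPL14, RPS25, RPS4X, RPS20 and RPL7A in 5. In total 25 members were in all 12 lists, 16 in 11, 8 in 10, 11 in 9, 8 in 8, 9 in 7, RPL29 in 6, RPS18 in 3, and RPL34 and RPL10L in 1.

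**Figure D3:**
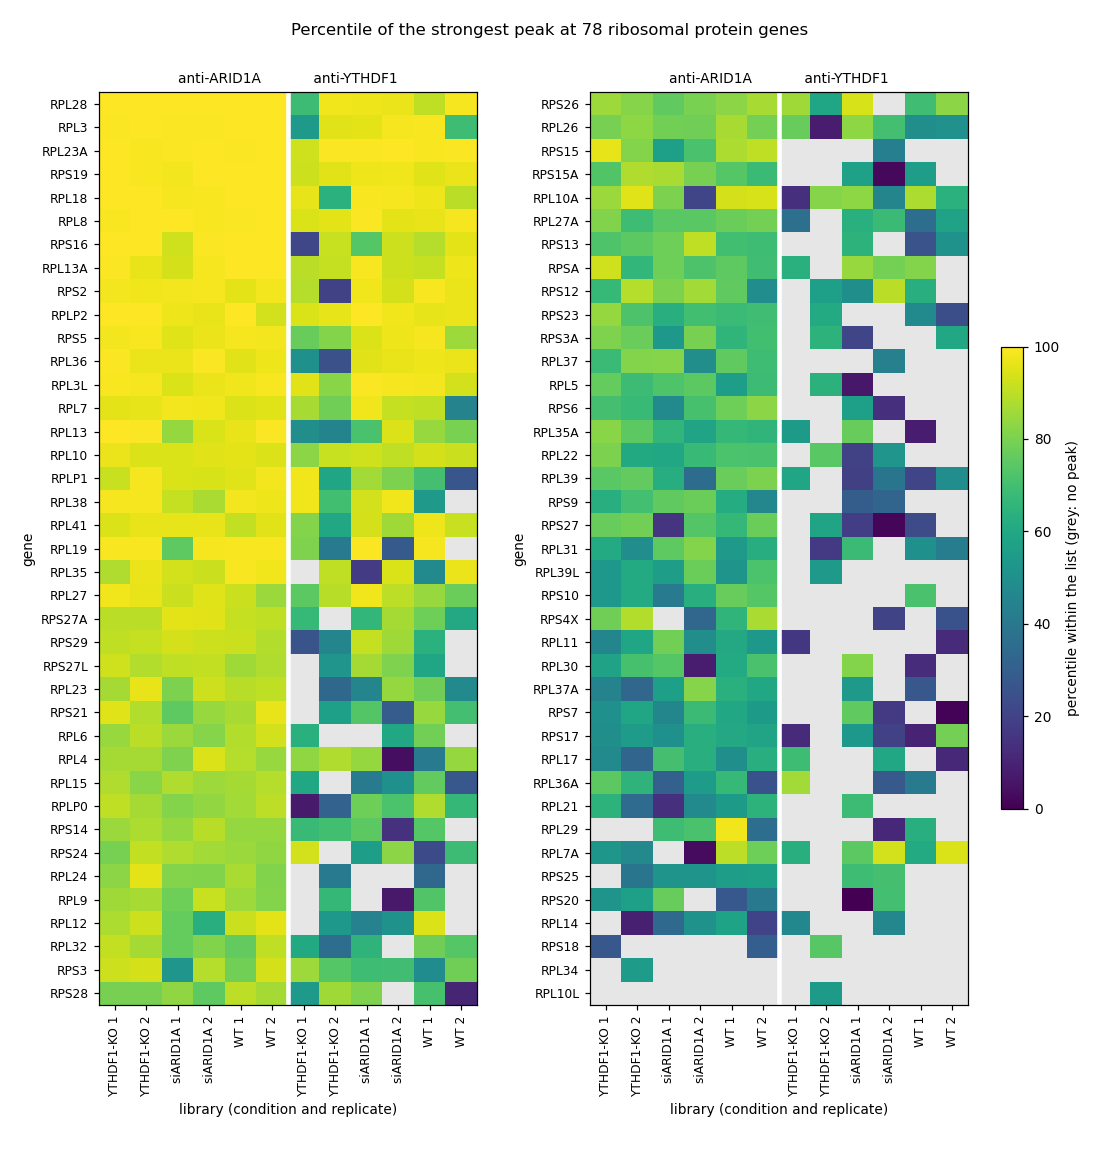
Percentile (colour, 0 to 100) of the strongest peak of 78 ribosomal protein genes (rows, ordered by the anti-ARID1A mean) in each library (columns: YTHDF1-KO, siARID1A and WT, 2 replicates each, anti-ARID1A left of the white line and anti-YTHDF1 right of it); grey marks a list without a peak. The anti-ARID1A columns are almost filled, whereas the anti-YTHDF1 columns are filled for the genes at the top and broken below, and RPS18, RPL34 and RPL10L are nearly empty throughout.

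RPL28, RPL23A, RPS19 and RPL8 were among the strongest members with both antibodies. With anti-ARID1A the highest mean percentiles included those of RPL28, RPL3, RPL23A, RPS19, RPL18, RPL8 and RPS16, from 99.96 for RPL28 to 98.7 for RPS16. With anti-YTHDF1 they included those of RPL23A (98.3), RPLP2, RPL8, RPS19, RPL3L, RPL13A and RPL28 (91.6). RPL23A lies at the exit of the nascent peptide tunnel and RPL3 and RPL8 near the peptidyl transferase centre. RPL23A's percentile was 92.9 and 99.3 in YTHDF1-KO, 99.6 and 99.6 in siARID1A, and 99.2 and 99.3 in WT with anti-YTHDF1, so that YTHDF1-KO replicate 1 alone was under 99. Its peaks also touched TLCD1 and NEK8 in 5 of those 6 lists. Among the lowest with anti-ARID1A were RPL10L, RPL34, RPS18, RPL14 (28.7), RPS20 (42.1), RPS25 (42.5) and RPL7A (45.2). The lowest with anti-YTHDF1 were RPL34, RPL11 (4.7), RPS15 (7.2), RPL37 (7.3), RPS4X (7.7), RPL39L (8.9), RPL10L (9.0) and RPS9 (10.3).

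Members on chromosome 19 stood at both ends with anti-YTHDF1, since RPL28 and RPS19 lie there and so do RPS15 and RPS9. Of the 12 members there, 12 were in all 6 anti-ARID1A lists and 8 in all 6 anti-YTHDF1 lists, against 60 and 17 of the 69 members elsewhere. Other genes of chromosome 19 were in all 6 lists for 74.7% (anti-ARID1A) and 51.6% (anti-YTHDF1). Whether the place on the chromosome accounts for the members' values was not tested.

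Peaks at members were often wide with anti-ARID1A. Those of 10 kb or more were the strongest peak of 19 and 15 members in YTHDF1-KO, 1 and 3 in siARID1A, and 17 and 17 in WT, and of none in the anti-YTHDF1 lists. As shares of the members held they were 25.0% and 19.2% in YTHDF1-KO, 1.32% and 3.90% in siARID1A, and 21.8% and 21.5% in WT, against 13.8% and 11.2%, 0.999% and 2.51%, and 12.6% and 16.7% of all held genes. The siARID1A values lie below all 4 others in both sets. The median member peak measured 3127 and 2521 bp in YTHDF1-KO, 1429.5 and 1854 bp in siARID1A, and 3294 and 2632 bp in WT.

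**Figure D4:**
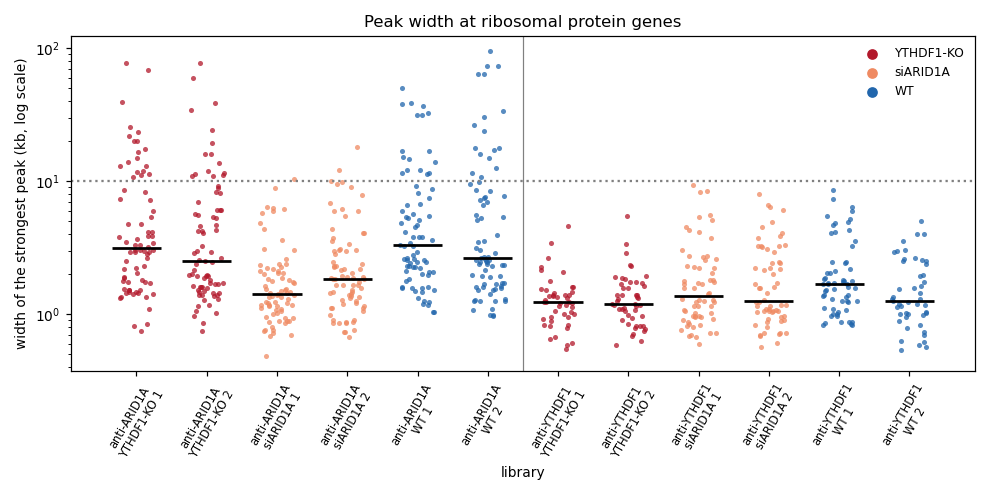
Width of the strongest peak (kb, log scale, y axis) at each ribosomal protein gene held, by library (x axis); colours give the condition, bars the median and the dotted line 10 kb. With anti-ARID1A, the siARID1A libraries have 1 and 3 peaks of 10 kb or more, the YTHDF1-KO libraries 19 and 15 and the WT libraries 17 and 17, and the anti-YTHDF1 libraries none.

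Wide peaks do not belong to the ribosomal gene alone. RPS16 (chromosome 19, 39433137 to 39435949, minus strand) had anti-ARID1A peaks of 77243 and 76926 bp in YTHDF1-KO, 1164 and 10092 bp in siARID1A, and 50053 and 64126 bp in WT. In both YTHDF1-KO and both WT libraries the highest signal of that peak was 32124.5 to 32162 bp downstream of the RPS16 start, in a peak that also spanned MED29, ZFP36 and PLEKHG2. In WT replicate 2 it ended beside RPS16 without reaching its start. In siARID1A the strongest peak of RPS16 lay at its own start, with the highest signal at -75.5 and -130 bp, where negative is upstream. The anti-YTHDF1 peaks of RPS16 measured 831 to 3271 bp and covered the start in all 6 libraries. In RPS19 and RPL28 too the widest peaks took in neighbours, such as CD79A and ARHGEF1 at RPS19. Over all lists, 40.8% to 60.5% of the members held had a strongest peak that also came within 1 kb of another protein-coding gene.

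Signal was compared between libraries with limma on the log2 of the strongest peak's total signal, after removal of each library's median. The test covered the 6999 genes held in all 12 lists, 25 of them members, with Benjamini-Hochberg adjustment over the 6999. A gene in every list is by construction one with well-called peaks, so these 25 do not speak for the other 56 members.

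Between the antibodies, 7 of the 25 members were higher with anti-ARID1A and none lower, where 16.4% of all genes tested were higher and 16.6% lower. Among them were RPS16 (log2 difference 3.72, SE 0.37, adjusted p = 1.05e-05), RPL28 (3.20), RPS19 (1.79), RPL3 (1.62), RPL18 (1.51) and RPL13 (1.49). RPL28's signal over the library median was 3.11 and 4.91 in YTHDF1-KO, 3.72 and 3.70 in siARID1A, and 4.09 and 4.68 in WT with anti-ARID1A, against -0.55 and 1.36, 1.14 and 1.04, and 0.14 and 1.85 with anti-YTHDF1. No anti-ARID1A value of RPL28 overlapped an anti-YTHDF1 value. In RPS16, RPS19, RPL18 and RPL13 the lowest anti-ARID1A value was from siARID1A and lay under the highest anti-YTHDF1 value. RPL3 overlapped too, by under 0.01, at 2.05 in anti-ARID1A of YTHDF1-KO replicate 1 and anti-YTHDF1 of WT replicate 1. Of the 7, 5 lie on chromosome 19, where 311 of 735 other genes tested were also higher.

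The antibody result depends on scale and on the wide peaks. The median difference was 0.52 over the members and -0.03 over all genes tested. Centred on the median of all peaks in place of the genes held, it was 2.02 over members and 1.47 over all genes, and 25 of 25 members and 87.4% of all genes were higher. With peaks of 10 kb or more left out, a setting chosen after seeing the data, 9 members could be tested and none of the 7 was among them. This cut removed strongest peaks of members from anti-ARID1A lists alone. RPLP2 lost anti-ARID1A peaks of 69038 and 38745 bp in YTHDF1-KO and 38553 bp in WT replicate 1. RPLP2, named after its value was seen, was then lower with anti-ARID1A (log2 difference -1.08, adjusted p = 0.0134), and no member was higher. With all peaks its difference was 0.86, so the lower value follows the cut and does not show less anti-ARID1A signal at RPLP2. The share of all genes called after the cut is not given. Within conditions, 9 members were higher with anti-ARID1A in YTHDF1-KO, 0 in siARID1A and 6 in WT, and none was lower. Of all genes, 9.24% were higher and 7.12% lower in YTHDF1-KO, 1.46% and 1.6% in siARID1A, and 8.49% and 6.63% in WT. Whether the difference of siARID1A from WT was itself unlike between the antibodies was tested, and no member passed (0.0% of all genes higher, 0.0572% lower), and likewise for YTHDF1-KO (0.0% either way).

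**Figure D5:**
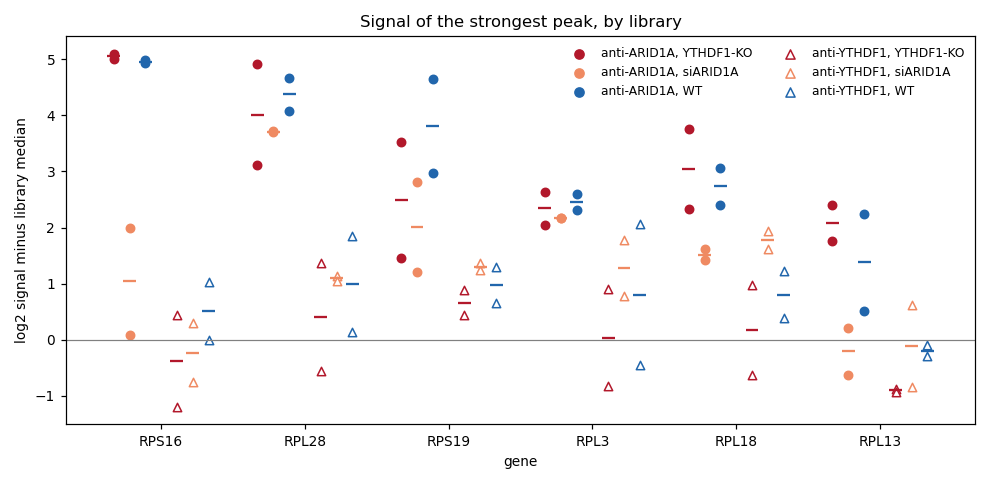
Log2 total signal of the strongest peak minus the library median (y axis) for 6 ribosomal protein genes called higher with anti-ARID1A (x axis), by library; circles are anti-ARID1A, open triangles anti-YTHDF1, colours the condition and bars the mean of 2. RPL28 separates the antibodies in every library, and the siARID1A circles of RPS16 lie at 0.09 and 1.99 below 4.94 to 5.10 in the other conditions.

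After ARID1A knockdown, the anti-ARID1A signal of 2 of the 25 members was lower and that of none higher, where 3.67% of all genes tested were lower and 0.486% higher. Both are among the 8 members tested on chromosome 19, and none of the 17 elsewhere was lower. Of 735 other genes tested on chromosome 19, 77 were lower and 2 higher, with a median difference of -0.59. Whether the place on the chromosome accounts for the 2 calls was not tested. RPS16 had a centred log2 signal of 0.09 and 1.99 in siARID1A, against 4.98 and 4.94 in WT (difference -3.92, SE 0.65, adjusted p = 0.00533). The groups do not overlap, and the WT values belong to the wide peak over ZFP36 and PLEKHG2 described above. RPS16 kept its call on the highest signal in place of the total, at -1.92 (adjusted p = 0.00141). That measure is taken from the same peaks. The highest signal of the wide WT peak lay far downstream of the RPS16 start, so the kept call is no separate evidence of a change at RPS16. RPS16 was not testable without the peaks of 10 kb or more. The median over the 25 members was -0.28, and that over all genes tested -0.02. The member median turned to 0.27 on the highest signal (0.15 over all genes) and to 0.07 over the 75 members held in the 4 lists compared, and it was -0.16 without WT replicate 2 and -0.45 without WT replicate 1. Of 20 other settings, RPS16 did not pass in 4. Among these were the percentile, all genes with percentile 0 for no peak, and the fit without siARID1A replicate 1.

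No member lacked an anti-ARID1A peak in both siARID1A libraries while having one in both WT libraries, of 78 that could have, where 2.52% of all genes did, and 3.22% of those held in both WT libraries. None had the reverse pattern, which was found in 0.36% of all genes and 2.34% of those held in neither WT library. The members on the stretch of chromosome 9 beyond 80 Mb, RPL35, RPL12 and RPL7A, lie where the median anti-ARID1A signal over genes was lower than in WT by log2 -1.03 in siARID1A and -0.84 in YTHDF1-KO. The anti-YTHDF1 signal there was lower too, by -0.75 in siARID1A and -0.65 in YTHDF1-KO. RPL7A, the only one of them missing from an anti-ARID1A list, had no peak and percentile 2.86 in siARID1A, against 90.2 and 78.0 in WT.

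In YTHDF1-KO, 1 member lacked an anti-ARID1A peak in both libraries, of 78 held in both WT libraries, and none had the reverse pattern. Of all genes 0.731% lacked a peak in this way (0.933% of those held in both WT libraries), and 0.921% had the reverse pattern (5.98% of those held in neither). It was RPL29 (chromosome 3, 51993522 to 51995895, minus strand), a heparin-binding protein of the large subunit. RPL29 had no peak in YTHDF1-KO, against percentiles of 97.7 and 36.3 in WT. In WT replicate 1 that peak was 11593 bp wide, had its highest signal 13249 bp downstream of the RPL29 start and took in ACY1, and in WT replicate 2 it covered the start. RPL29 had a peak over its start in siARID1A as well, at 69.0 and 71.2. For signal, none of the 25 members passed (0.114% of all genes higher, 0.0857% lower), with 4 members and 586 genes at an unadjusted p under 0.05.

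The anti-YTHDF1 comparison of YTHDF1-KO with WT called no member on signal. None of the 25 members and none of the 6999 genes passed (0.0% called), with 5 members and 745 genes at an unadjusted p under 0.05. The median difference was -0.58 over members, 19 of 25 being below 0, and 0.03 over all genes tested. The member median moved to -0.15 without YTHDF1-KO replicate 1, to -0.33 without WT replicate 2 and to -0.30 over the 9 members testable without the peaks of 10 kb or more. RPS13 was 1 of 2 members that lacked a peak in both YTHDF1-KO libraries, of 42 members held in both WT libraries, where 2.58% of all genes, and 5.22% of the genes so held, had that pattern. The reverse was found in no member, in 1.95% of all genes and in 7.08% of those held in neither WT library. RPS13 had no peak in YTHDF1-KO, against percentiles of 25.5 and 51.2 in WT, and neither of its WT peaks covered the start. With 1 library left out, members with a peak in WT alone numbered 9 without YTHDF1-KO replicate 1, 7 without YTHDF1-KO replicate 2, 4 without WT replicate 1 and 7 without WT replicate 2. Those with a peak in YTHDF1-KO alone numbered 5, 1, 4 and 0 in the same order. A pattern needs fewer calls with 1 library left out, and the shares of all genes there are not given. These counts therefore do not set the members apart from other genes.

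Under ARID1A knockdown, 6 members had an anti-YTHDF1 peak in both libraries, of 15 held in neither WT library. The pattern was found in 2.71% of all genes and 9.82% of those held in neither WT library. Among them were RPL22 of the large subunit and RPS6, RPS9, RPS20 and RPS25 of the small subunit. RPS6 is the substrate for which the S6 kinases are named, and RPS25 is needed for initiation at several viral internal entry sites. RPS25 (chromosome 11, 119015717 to 119018343, minus strand) had percentiles of 69.0 and 70.4 in siARID1A, with no peak in WT or YTHDF1-KO. Its siARID1A peaks covered the start, in the promoter shown above, which it shares with its neighbour TRAPPC4. RPS9 had 29.6 and 32.5 in siARID1A over its start, and no other anti-YTHDF1 peak. RPS20 was less even, at 0.149 and 70.0 in siARID1A. All 6 were held by at least 5 anti-ARID1A lists.

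RPS23, a protein of the decoding centre, had no anti-YTHDF1 peak in siARID1A, against percentiles of 47.7 and 24.0 in WT, and was the 1 member with that pattern (1.23% of all genes, 2.48% of those held in both WT libraries). RPS25 alone kept its pattern in all 7 other ways of calling a gene held, RPS9 kept it in 5, and the other 8 members with a pattern in any comparison kept theirs in 4. The count of 7 members, both directions together, went to 18 without WT replicate 1 (16 with a peak in siARID1A alone), 15 without siARID1A replicate 1 (9 in siARID1A alone), and 2 with all lists cut to the length of the shortest, WT replicate 2. The shares of all genes in these settings are not given, so the changes in count do not set the members apart. No anti-YTHDF1 signal difference between siARID1A and WT passed in a member or any gene (0.0% called), with 1 member and 702 genes at an unadjusted p under 0.05. The 2 comparisons of each antibody share their WT libraries.

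Other genes of the translation machinery were set beside the members. Of 41 translation factor genes, 38 were in all 6 anti-ARID1A lists and 24 in all 6 anti-YTHDF1 lists, of 69 ribosome biogenesis genes 57 and 23, and of 77 mitochondrial ribosomal protein genes 61 and 20. Of 7 genes of the ribosome outside the rule, 6 and 4 were. Translation factors were thus held more often by anti-YTHDF1 lists (58.5%) than members (30.9%), at a median length of 17767 against 5015 bp, and the difference was not tested. FAU, whose product is cleaved to the small-subunit protein eS30, was higher with anti-ARID1A in YTHDF1-KO than in WT (log2 3.07, SE 0.48, adjusted p = 0.0259), the only gene of these lists called between a condition and WT. Between antibodies, where 16.4% of all genes tested were higher and 16.6% lower, the counts in these lists are small. Of 24 translation factors tested, EEF1G (2.39), EIF3C and EIF6 were higher with anti-ARID1A, and EIF3B (-1.06) and EIF5B lower. Of 23 biogenesis genes, NOP53 and PES1 were higher, and FBL (-1.50), the rRNA methyltransferase of the box C/D particle, and POLR1A lower. RACK1 (1.41), which sits on the small subunit, and RPL26L1 were higher among 4 tested. Of 19 mitochondrial genes, 3 were higher and 4 lower, led by MRPL34 (1.24) and MRPL21 (-2.26).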

How the data were processed

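Peak lists were analysed per sample, as deposited. Per the submitters' processing notes, the tools were SEACR 1.3, Bowtie2 2.4.2, fastp 0.23.2, deepTools 3.5.2, bedtools 2.30.0 and SAMtools 1.9, with build hg38. How IgG entered peak calling is not stated. The authors' total and highest signal per peak are coverage. No label states their scale per library, so depth is unknown. Signal was compared between libraries only after subtraction of each library's median, or as percentiles. Gene positions and promoters came from RefSeq (GRCh38.p14), with 17 members not in the promoter table. The members and all gene lists were chosen with earlier results of these data known. Named members were those missing a list, the 8 highest and lowest by percentile per antibody, those held in both libraries of a condition but not in WT or the reverse, and those past 0.05 in limma, at most 8 per direction. Other lists' genes were named only for the last 2 reasons, at most 3 per direction. A few members that the rule names are not reported here, and remain in the counts. With 2 libraries against 2, presence was counted without a test. limma 3.58.1 (R 4.3.3) was fitted to all 12 libraries as 6 groups and tested on simulated data. Python 3.11.15 and SciPy 1.17.1 were used. Alternatives were other windows, overlaps, list lengths, centrings and signal measures, and each library left out.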

Additional observations from a re-analysis of the deposited data

How the results depend on the processing

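The counts of members held by all 6 anti-YTHDF1 lists and by all 12 lists (25 each) were both 11 with the window of 1 kb around the start and both 14 with the stronger peaks of each list alone, those above its median. Without peaks of 10 kb or more, 9 were in all 12 lists. Leaving out 1 library gave 25 to 32, 72 to 74 and 25 to 31 members in all anti-YTHDF1, all anti-ARID1A and all 12 lists. Members held by a condition's 2 libraries and missing from those of WT, or the reverse, were, for anti-YTHDF1 in YTHDF1-KO (2), 1 at the start and 1 with lists of equal length, and 7 to 14 without 1 library. For anti-ARID1A in siARID1A (0) they were 1 at the start, 3 with the stronger peaks, 3 at equal length, 7 without wide peaks and 0 to 2 without 1 library. For anti-ARID1A in YTHDF1-KO (1) they were 0 with 3 kb, 3 with the stronger peaks, 2 at equal length, 2 without wide peaks and 1 to 3 without 1 library. For anti-YTHDF1 in siARID1A (7) they were 4 at the start, 1 with the stronger peaks, 2 at equal length and 9 to 18 without 1 library. Fewer peaks enter with shorter lists, and with 1 library a pattern needs fewer calls. With anti-ARID1A the wide-peak cut took the strongest peak of 17 and 17 members in WT but of 1 and 3 in siARID1A. The 7 members there are thus counted after a cut that acted mostly on WT. The shares of all genes in these settings are not beside the counts, so they do not set the members apart.

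For anti-ARID1A in siARID1A, 1 member passed on the highest signal, 0 on the percentile, 1 among genes held in the 4 lists compared, 7 with centring on all peaks (median of all genes -0.78), 1 at the start, 0 without wide peaks, and 0 with all genes and percentile 0 for no peak. Without 1 library the count was 0 to 3. Between antibodies it was 25 with centring on all peaks, 1 without wide peaks, 30 with all genes, and 7 to 9 without 1 library. For anti-YTHDF1 in YTHDF1-KO it was 2 on the percentile and 3 with all genes, for anti-YTHDF1 in siARID1A 2 with all genes, and for anti-ARID1A in YTHDF1-KO 1 at the start and 0 to 1 without 1 library. RPS19 between antibodies turned to -4.21 percentile points after each library's median percentile was subtracted. Without that subtraction its mean percentile was higher with anti-ARID1A (99.5) than with anti-YTHDF1 (95.9). The negative value belongs to the centred scale and is not a lower rank with anti-ARID1A. The alternative of genes held in the 4 lists compared could not be applied to the antibody contrast, which uses all 12. The counts in this paragraph are of members alone. The share of all genes called in each setting is not beside them, so they do not set the members apart from other genes. Between antibodies with centring on all peaks, most genes tested were higher too, as given above. Same-numbered samples deviated with correlations of -0.061 to 0.041, so the numbers do not pair the samples, and with the replicate block the calls stayed 0, 2, 0, 0 and 7 in the order of the comparisons (anti-YTHDF1 in YTHDF1-KO, anti-ARID1A in siARID1A, anti-ARID1A in YTHDF1-KO, anti-YTHDF1 in siARID1A, antibodies). Depth is unknown, so a missing peak is a missing call, not an absence of binding.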

Other observations

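Ribosomal protein pseudogenes, copies without promoters that share sequence with members, were held far less often than members. Of 1142 that lie apart from protein-coding genes, anti-ARID1A lists held 17.7% and 15.9% in YTHDF1-KO, 7.53% and 8.76% in siARID1A, and 14.8% and 18.3% in WT. Other pseudogenes lying apart were held at 19.8% and 19.96%, 12.4% and 13.9%, and 18.3% and 21.2% in the same lists. The anti-YTHDF1 lists held 3.59% to 6.39% of the ribosomal protein pseudogenes and 8.02% to 10.9% of the others. How reads shared by a member and its copies were placed is not stated in the labels, and its part in the members' values was not tested.

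Of the 81 members, 29 hold a small nucleolar RNA gene, 60 such genes in all. These hosts were in all 6 anti-YTHDF1 lists in 11 of 29 and in all 6 anti-ARID1A lists in 27 of 29, against 14 and 45 of the 52 members without one.

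Under YTHDF1 knockout, the ribosome biogenesis genes BRIX1, DKC1 and NAT10 were among 6 of 69 without a peak in the YTHDF1-KO and with one in the WT anti-YTHDF1 libraries, and none had the reverse pattern. Among mitochondrial ribosomal protein genes it was 1 of 77, with 5 in the reverse direction, MRPL15, MRPL36 and MRPL42 among them. Of all genes, 2.58% had the pattern and 1.95% the reverse.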
